A study of Mus musculus with 4 samples.

Results

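The genes described here are 10 pluripotency-associated genes, namely Pou5f1, Sox2, Nanog, Klf4, Utf1, Dppa3, Dppa4, Tcl1, Zfp42 and Esrrb. They were chosen by name, and each was found as 1 entry among the 55421 genes of the deposited count table. The libraries came from primary spermatogonia cultures (SSC cultures) of CD1 mice, started from testes of neonatal pups, and were made from poly(A) RNA. Complete SSC medium was kept in Veh. In NRRA most of that medium was replaced by Earle's Balanced Salt Solution, which contains no amino acids, and retinoic acid (RA) was added. Each group had 2 libraries. The growth factors of SSC medium, among them bFGF and GDNF, were diluted with it, so that NRRA also lowered their supply. All cultures grew on irradiated feeder fibroblasts (MEF) derived from embryos of CF1 mice, so RNA of both cell types was present. The cells carried no engineered allele that the labels name. The study's sequencing replicates are stated to be independent biological samples, but the labels do not name the culture behind each library, and p-values measure only the spread between these libraries.

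Pluripotency is the ability of a cell to form all tissues of the body. In embryonic stem cells it is held by a network of transcription factors in which OCT4 (encoded by Pou5f1), SOX2 and NANOG bind many of the same enhancers, and KLF4, ESRRB and REX1 (encoded by Zfp42) act in the naive state. Germ cells share part of this network. Primordial germ cells express Pou5f1, Sox2, Nanog and Dppa3, and undifferentiated spermatogonia of the mouse retain Pou5f1 and Utf1, which are lost as the cells differentiate in response to RA.

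The members did not move as a group. Pou5f1, Sox2, Utf1, Tcl1 and Dppa3 fell in NRRA, from 4.74-fold for Sox2 to a loss of nearly all counts for Dppa3. Klf4 and Zfp42 rose, by 1.29-fold and 1.31-fold. Dppa4 and Esrrb did not pass the test, and Nanog was at the counting floor in every library. Of the 9 members that passed the filter on low counts, 5 were thus lower and 2 were higher at an adjusted p under 0.05 (edgeR quasi-likelihood test, Benjamini-Hochberg over all genes). Dppa3 passed the filter only through its Veh libraries, so it could only be called lower. Among all 20232 genes tested, 28.4% were lower, 27.9% were higher and 56.4% passed in either direction. All 5 members that fell did so by at least 2-fold, as did 7.02% of the genes tested, while 6.29% rose by at least 2-fold and no member did. The median log2 fold change of the 9 tested members was -2.24, beside 0.00029 over all genes tested.

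**Figure D1:**
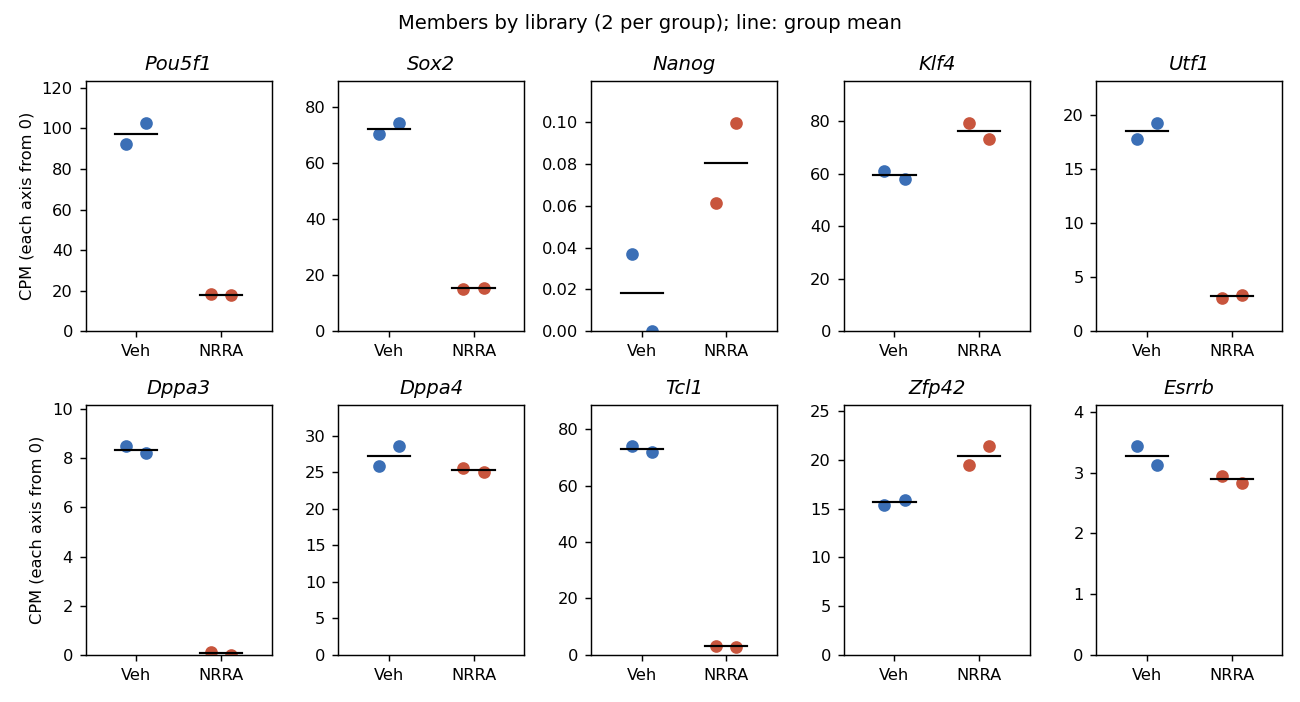
Level of each of the 10 members in library-scaled counts (CPM, y axis, starting at 0 in each panel) in the 2 Veh and the 2 NRRA libraries (points), with the group mean as a line. Pou5f1, Sox2, Utf1, Tcl1 and Dppa3 lie lower in NRRA, Klf4 and Zfp42 lie higher, and the Nanog axis reaches only about 0.1 CPM.

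The totals of counts assigned to genes were between 28022265 and 31604769 per library. CPM values below are counts scaled to the library size after TMM normalization, and the counting floor of 3 counts corresponded to between 0.0921 and 0.111 CPM. Stra8, a gene induced by RA at the start of meiosis, served as a check of the labels, with 261 and 300 counts in Veh against 60702 and 55775 in NRRA. The summed level of 8 germ cell markers, such as Ddx4 and Dazl, was between 1916 and 1991 CPM in Veh and between 1982 and 1987 in NRRA, while 4 of them were higher and 3 lower. The sum of 15 feeder fibroblast markers, such as Col1a1, was between 10110 and 10240 CPM in Veh and between 7745 and 7935 in NRRA, with 13 lower and 1 higher. Most of this sum was Fn1, with a mean of 6115 CPM in Veh and 4357 in NRRA. The sum of 8 markers of testis somatic cells was between 40.9 and 44.9 CPM in Veh and between 24.4 and 24.6 in NRRA. Of these, Sox9 fell by 1.59 on the log2 scale (735 and 874 counts to 304 and 284), Star rose by 0.31, and Wt1 had 178, 233, 189 and 182 counts, while Fshr was at 0 and Amh had 1 to 3 counts. Of 11 markers of undifferentiated spermatogonia, which include Ret, Id4 and Nanos2, 10 were lower and none was higher, and their sum was between 1780 and 1808 CPM in Veh and between 332.5 and 336.2 in NRRA. In bulk RNA a smaller number of cells of a type and less RNA per cell cannot be told apart, and the part of cell composition in the values below was not tested.

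The promoters of the members that moved differ in base composition and in common motifs. For 8 members the RefSeq table for GRCm38.p6 held a promoter, and the 250 bases before its start were searched. Pou5f1, Nanog and Esrrb had 2 promoters each in the table, of which the one nearest to the GENCODE start was taken and the other was not searched. Dppa3 and Dppa4 had no entry. The RefSeq start lay 14, 67 and 56 bases inside the GENCODE gene for Pou5f1, Utf1 and Tcl1, and 410, 9 and 29 bases before it for Sox2, Klf4 and Zfp42, and where the transcripts counted here begin was not measured. The windows of members that fell or rose are shown so that their composition can be compared, without the bases inside the GENCODE gene. Letters are 5′ to 3′ on the gene's own strand, and capitals mark matches on either strand to the GC box GGGCGG, the CCAAT box, the octamer ATGCAAAT bound by POU factors, the SOX core ACAAAG, the nuclear receptor half-site AGGTCA or the E-box CACGTG, where adjoining matches run together. The windows of Pou5f1 (chr17:35505782-35506017, plus strand), Sox2 (chr3:34649745-34649994, plus), Utf1 (chr7:139943606-139943788, plus) and Tcl1 (chr12:105222794-105222987, minus) belong to members that fell, and those of Klf4 (chr4:55532476-55532725, minus) and Zfp42 (chr8:43307010-43307259, minus) to members that rose.
Pou5f1: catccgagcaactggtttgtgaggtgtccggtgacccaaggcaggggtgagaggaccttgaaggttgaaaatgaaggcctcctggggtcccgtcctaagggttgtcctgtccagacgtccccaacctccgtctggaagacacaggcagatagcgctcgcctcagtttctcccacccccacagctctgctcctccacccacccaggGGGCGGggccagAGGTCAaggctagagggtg
Sox2: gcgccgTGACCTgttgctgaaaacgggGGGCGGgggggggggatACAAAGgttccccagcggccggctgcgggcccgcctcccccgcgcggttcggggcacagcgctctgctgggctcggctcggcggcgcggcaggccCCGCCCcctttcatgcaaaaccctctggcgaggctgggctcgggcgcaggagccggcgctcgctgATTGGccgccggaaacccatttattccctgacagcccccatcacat
Utf1: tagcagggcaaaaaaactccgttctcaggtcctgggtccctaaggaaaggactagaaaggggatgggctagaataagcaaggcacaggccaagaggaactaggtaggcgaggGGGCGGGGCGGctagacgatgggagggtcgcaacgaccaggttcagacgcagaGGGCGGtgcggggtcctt
Tcl1: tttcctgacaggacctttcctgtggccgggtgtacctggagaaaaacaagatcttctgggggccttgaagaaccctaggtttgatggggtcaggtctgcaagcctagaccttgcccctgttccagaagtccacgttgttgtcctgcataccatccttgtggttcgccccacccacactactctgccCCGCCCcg
Klf4: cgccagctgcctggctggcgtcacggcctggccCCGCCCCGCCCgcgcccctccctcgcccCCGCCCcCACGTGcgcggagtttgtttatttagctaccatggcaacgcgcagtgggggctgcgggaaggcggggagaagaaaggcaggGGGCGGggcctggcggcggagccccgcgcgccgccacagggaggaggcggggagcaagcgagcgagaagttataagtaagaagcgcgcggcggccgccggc
Zfp42: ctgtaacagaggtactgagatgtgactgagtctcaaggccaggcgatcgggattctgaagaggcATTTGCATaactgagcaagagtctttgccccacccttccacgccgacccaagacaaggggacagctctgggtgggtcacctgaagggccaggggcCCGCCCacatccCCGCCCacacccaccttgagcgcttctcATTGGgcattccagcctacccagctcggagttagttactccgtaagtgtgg

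A GC box was present in all 6 of these windows of 250 bases, 4 times in Klf4 and in Utf1, and in neither of the windows of Nanog and Esrrb. Among the 32536 windows of the same length in the table, 33% held one. CCAAT was found in the windows of Pou5f1, Sox2 and Zfp42, and in 33.8% of all windows. The CCAAT of Pou5f1, 1 GC box of Utf1 and 1 of Tcl1 lay in the bases not printed. The half-site AGGTCA, a sequence that receptors for RA can bind in pairs, was found in Pou5f1 33 bases before the start, in Sox2 at 244 and in Nanog at 248 bases before it (first base of the match as written), and in 14% of all windows. The octamer was found only in Zfp42, a member that rose, and in 1.62% of all windows, and the SOX core only in Sox2, with 16.5% of all windows. None of the 8 windows held a TATAAA, which 12.3% of all windows did. The GC content was 62% in Pou5f1, 72% in Sox2, 61.6% in Utf1, 57.6% in Tcl1, 74% in Klf4 and 58.4% in Zfp42, and 60.8% in Esrrb and 52% in Nanog, beside a median of 52.4% over all windows. These matches describe letters and show no binding.

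Pou5f1 (ENSMUSG00000024406, GRCm38 chr17:35506018-35510772, plus strand) encodes OCT4, the POU factor required for the pluripotent state. It had 2498 and 3059 counts in Veh against 599 and 536 in NRRA, equal to 92.1 and 102.8 CPM against 18.4 and 17.8 CPM. Both NRRA libraries thus lay far below both Veh libraries, and the NRRA libraries differed from each other by less than the Veh libraries did. Pou5f1 fell by 2.43 on the log2 scale (SE 0.06), a 5.39-fold lower level (adjusted p = 9.38e-22, edgeR), and 314 of the genes tested had a lower log2 fold change. The SE, here and below, was derived from the F statistic of edgeR and may be too small. DESeq2, an alternative method, gave an SE of 0.09 for Pou5f1.

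An annotated antisense transcript, Gm19553 (chr17:35509077-35510551, minus strand), lies across the 3′ part of Pou5f1, and 317 of its 494 exonic bases overlap Pou5f1 exons, which is 14.1% of the exonic bases of Pou5f1. Its counts were 1037 and 1218 in Veh against 246 and 234 in NRRA. It fell by 2.37 on the log2 scale (SE 0.08, adjusted p = 1.12e-18, edgeR). The counts of Gm19553 came to 41.5% and 39.8% of those of Pou5f1 in Veh and to 41.1% and 43.7% in NRRA, so the ratio was nearly the same in the 4 libraries. The library preparation was stranded according to the methods, but the strand setting used for counting is not given in the sources used here, so in the shared stretch reads from Pou5f1 and from its antisense partner cannot be told apart.

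**Figure D2:**
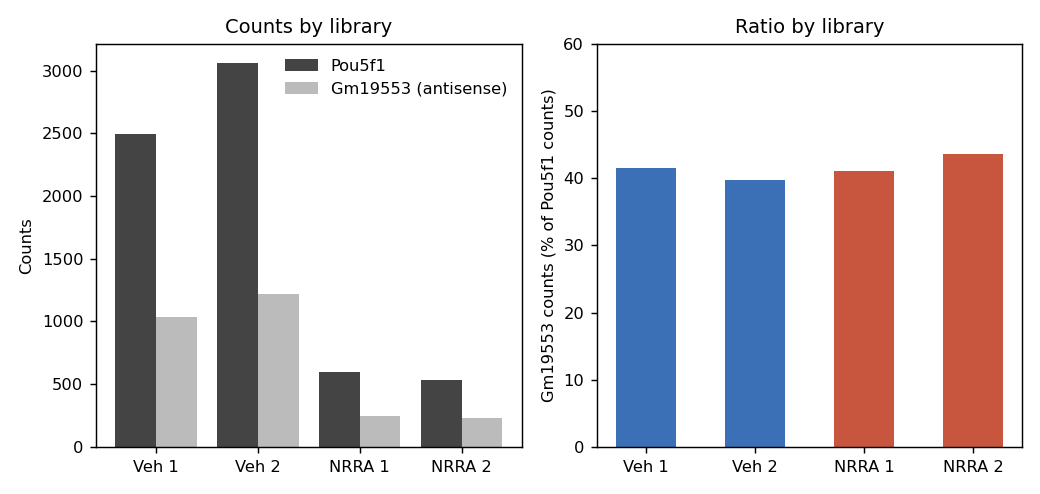
Counts of Pou5f1 and of the overlapping antisense gene Gm19553 in each library (left, counts) and Gm19553 as a percentage of Pou5f1 (right, percent of counts). Both genes fall together, and the percentage stays between 39.8 and 43.7 in the 4 libraries.

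Sox2 (ENSMUSG00000074637, chr3:34650405-34652461, plus strand) is a gene of 1 exon that encodes the high-mobility-group factor with which OCT4 pairs on DNA. Its counts were 1905 and 2214 in Veh against 491 and 466 in NRRA, or 70.2 and 74.4 CPM against 15.1 and 15.5 CPM. The libraries of each group lay close together and the groups did not overlap. Sox2 fell by 2.24 on the log2 scale (SE 0.06, adjusted p = 7.28e-21, edgeR), which was 4.74-fold. Partners Pou5f1 and Sox2 therefore fell by similar amounts, and the difference between the 2 falls was not tested.

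Nanog (ENSMUSG00000012396, chr6:122707489-122714633, plus strand), the homeodomain factor of the core network, had 1 and 0 counts in Veh against 2 and 3 in NRRA. All 4 values were at or below the floor of 3 counts, so that no fold is given and the gene did not enter the test. At this depth a Nanog level under the floor, about 0.1 CPM, cannot be told from 0 in either group. Nanog shares a stretch of 106 to 190 bases at 95% identity or more with 60 other genes beside its pseudogene, up to 8.59% of its longest transcript with any one of them.

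Utf1 (ENSMUSG00000047751, chr7:139943789-139945112, plus strand) encodes a chromatin-associated factor that marks undifferentiated spermatogonia. It had 482 and 575 counts in Veh against 101 and 102 in NRRA, equal to 17.8 and 19.3 CPM against 3.1 and 3.39 CPM. It fell by 2.52 on the log2 scale (SE 0.12, adjusted p = 1.2e-15, edgeR), which was 5.72-fold. The 2 NRRA libraries differed by 1 count, and both lay far below Veh.

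Tcl1 (ENSMUSG00000041359, chr12:105216750-105222793, minus strand) encodes a co-activator of the AKT kinases that embryonic stem cells express at high levels. It had 2004 and 2144 counts in Veh against 104 and 84 in NRRA, equal to 73.9 and 72.1 CPM against 3.19 and 2.79 CPM. The libraries of each group lay close together, with no overlap. Tcl1 fell by 4.60 on the log2 scale (SE 0.08, adjusted p = 1.4e-24, edgeR), a 24.3-fold lower level. This SE may be too small, since DESeq2 gave 0.14.

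Dppa3 (ENSMUSG00000046323, chr6:122626410-122630272, plus strand) encodes STELLA, a protein of primordial germ cells and oocytes that protects DNA methylation in the zygote. It had 230 and 244 counts in Veh against 4 and 0 in NRRA, equal to 8.48 and 8.2 CPM against 0.123 and 0 CPM. Nearly all counts were lost, and only 1 of the NRRA libraries was above the floor. The ratio of the summed counts, scaled for library size, was 131 (95% interval from 50.7 to 481, counting error only). The fitted change was -6.94 on the log2 scale (SE 0.35, adjusted p = 3.27e-15, edgeR), a value that depends on how the fit treats counts near 0. This SE is too small, since the interval for counting error alone was wider than it implies. DESeq2 gave an SE of 0.77. Without NRRA replicate 1 the fitted change was -10.92, and without NRRA replicate 2 it was -6.04.

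Klf4 (ENSMUSG00000003032, chr4:55527143-55532466, minus strand) encodes a zinc finger factor that is one of the reprogramming factors and is also expressed in fibroblasts and epithelia. It had 1651 and 1724 counts in Veh against 2584 and 2205 in NRRA, equal to 60.9 and 57.9 CPM against 79.3 and 73.2 CPM. Both NRRA libraries were above both Veh libraries. Klf4 rose by 0.36 on the log2 scale (SE 0.05, adjusted p = 4.3e-07, edgeR), or 1.29-fold. The feeder fibroblast markers, as a sum, were lower in both NRRA libraries in which Klf4 was higher, but most of that sum was Fn1. Of the 15 markers, 13 were lower, among them Col1a1 by only 0.10 on the log2 scale, and 1, Col3a1, rose by 0.61. The part of the feeder cells in the Klf4 counts was not tested.

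Zfp42 (ENSMUSG00000051176, chr8:43295063-43306980, minus strand) encodes REX1, a zinc finger protein used as a marker of naive stem cells. It had 416 and 473 counts in Veh against 635 and 643 in NRRA, equal to 15.3 and 15.9 CPM against 19.5 and 21.4 CPM. It rose by 0.39 on the log2 scale (SE 0.08, adjusted p = 0.000309, edgeR), or 1.31-fold, with no overlap of the groups. Both members that rose changed by less than any of the 5 that fell.

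Dppa4 (ENSMUSG00000058550, chr16:48283733-48294237, plus strand) encodes a chromatin protein that works with DPPA2 in early embryos. It had 703 and 850 counts in Veh against 834 and 753 in NRRA, equal to 25.9 and 28.6 CPM against 25.6 and 25.01 CPM. The groups did not overlap, but the lower Veh library lay closer to both NRRA libraries than to the other Veh library. The log2 fold change was -0.11 (SE 0.07, adjusted p = 0.207, edgeR), with a 95% interval from -0.25 to 0.03.

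Esrrb (ENSMUSG00000021255, chr12:86361117-86521628, plus strand) encodes an orphan nuclear receptor of the naive network. It had 93 counts in each Veh library and 96 and 85 in NRRA, or 3.43 and 3.13 CPM against 2.95 and 2.82 CPM. The log2 fold change was -0.18 (SE 0.19, adjusted p = 0.442, edgeR), and its 95% interval, from -0.55 to 0.19, was wider than that of Dppa4.

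Levels between genes were compared only per length, in RPKM, the CPM divided by the exonic length in kilobases. In Veh the order was Pou5f1 (43.4 ± 3.37 RPKM, SD, n = 2), Tcl1 (39.6 ± 0.702), Sox2 (35.2 ± 1.43), Klf4 (19.5 ± 0.68), Dppa4 (16.4 ± 1.13), Utf1 (15.1 ± 0.895), Dppa3 (9.35 ± 0.222), Zfp42 (8.3 ± 0.21) and Esrrb (0.542 ± 0.0355), with Nanog last. The 3 genes at the head lay between the 92.1 and 94.2 percentile of the genes tested. Neighbours in that order whose difference was within their spread, judged by overlap of mean ± SD, were Pou5f1 and Tcl1, and Dppa4 and Utf1. In NRRA the order was Klf4 (25 ± 1.41 RPKM), Dppa4 (15.2 ± 0.253), Zfp42 (10.9 ± 0.7), Pou5f1 (8.05 ± 0.185), Sox2 (7.43 ± 0.139), Utf1 (2.64 ± 0.165), Tcl1 (1.62 ± 0.155), Esrrb (0.477 ± 0.0145) and Dppa3 (0.0688 ± 0.0974), again with Nanog last, and only Dppa3 and Nanog overlapped. The 3 members that did not fall and were above 1 RPKM in Veh thus led the order in NRRA, while Tcl1 went from second place to seventh and Dppa3 from seventh to ninth.

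**Figure D3:**
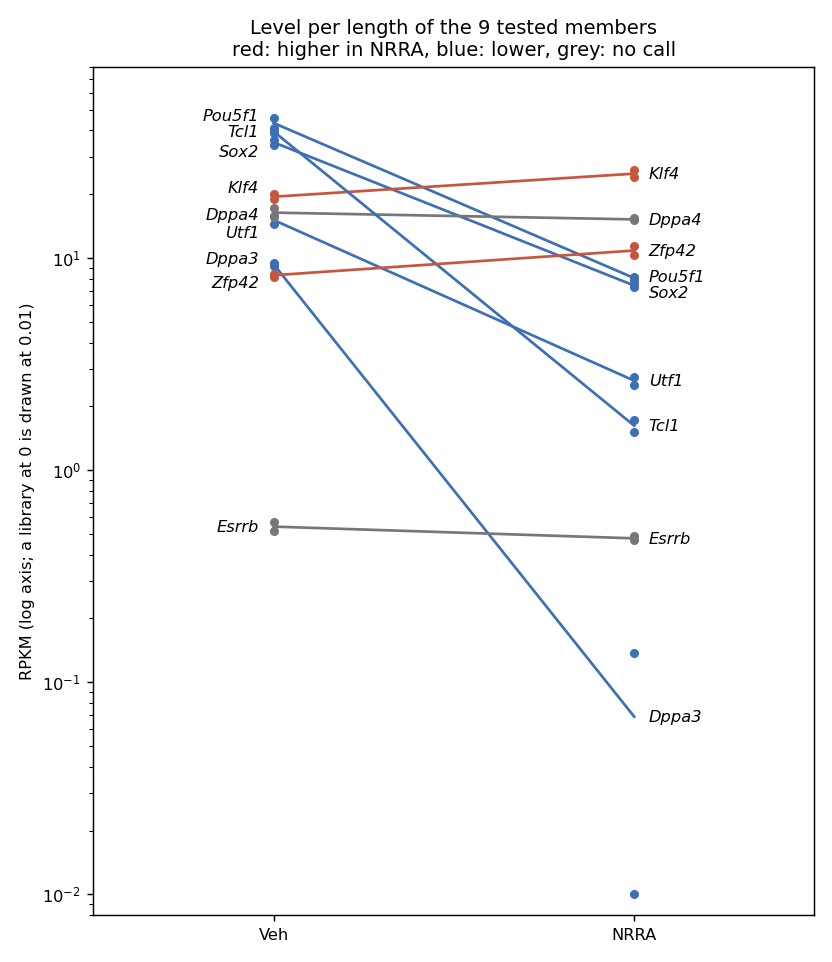
Level per length in RPKM (y axis, log scale) of the 9 tested members in Veh and NRRA. Points are libraries, lines join the group means, red marks members higher in NRRA, blue lower and grey no call, and the NRRA library with no Dppa3 count is drawn at 0.01. The lines of Pou5f1, Tcl1 and Sox2 start highest and end below those of Klf4, Dppa4 and Zfp42.

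Pseudogenes that closely match a member can take or give reads. How reads that map to several places were counted is not given in the sources used here. Of the members, Dppa3, Dppa4, Zfp42 and Nanog had a near-identical pseudogene in the table, and Sox2, Klf4, Utf1, Tcl1 and Esrrb had no near-identical stretch in any other gene. Pou5f1 had one only in its antisense partner. Over the longest match, 8 of 451 bases differed for Dppa3-ps, 3 of 532 for Gm14058, 5 of 266 for Zfp42-ps1 and 6 of 245 for Nanog-ps1. For these pairs, the 60 coding bases with the most differences are shown, so they are not typical of the match. Capitals mark the bases that differ, and positions are counted from the A of the start codon.
Dppa3: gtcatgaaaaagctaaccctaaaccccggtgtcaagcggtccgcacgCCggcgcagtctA
Dppa3-ps: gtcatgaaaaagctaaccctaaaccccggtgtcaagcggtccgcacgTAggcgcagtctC
Dppa4: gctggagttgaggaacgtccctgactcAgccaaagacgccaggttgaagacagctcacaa
Gm14058: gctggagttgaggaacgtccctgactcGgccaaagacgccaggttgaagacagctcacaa
Zfp42: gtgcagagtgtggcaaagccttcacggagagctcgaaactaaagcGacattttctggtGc
Zfp42-ps1: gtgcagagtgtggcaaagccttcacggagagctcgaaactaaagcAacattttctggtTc
Nanog: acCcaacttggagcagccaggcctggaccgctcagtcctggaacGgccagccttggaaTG
Nanog-ps1: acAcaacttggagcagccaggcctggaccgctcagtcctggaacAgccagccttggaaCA

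Positions run from 118 to 177 for Dppa3, from 360 to 419 for Dppa4, from 602 to 661 for Zfp42 and from 674 to 733 for Nanog. The differences, with the base of the gene first, were C165T, C166A and A177C for Dppa3-ps, A387G for Gm14058, G647A and G660T for Zfp42-ps1, and C676A, G718A, T732C and G733A for Nanog-ps1.

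Dppa3-ps, on chromosome X, was 98.2% identical to Dppa3 over 451 bases, which is 54.1% of the Dppa3 transcript. Its counts were 6 and 6 in Veh against 1 and 3 in NRRA, or 2.53% of the Dppa3 counts in Veh and 100% in NRRA. The ratio of its summed counts, Veh over NRRA, was 3.31 (95% interval from 1 to 14.1, counting error only), far below the ratio of Dppa3. With these counts added to Dppa3 the log2 fold change was -6.02. A second copy, Gm15620, had 0, 1, 0 and 0 counts. In NRRA as many counts stood at the pseudogene as at Dppa3, 4 in each case over both libraries.

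Zfp42-ps1, on chromosome 15, matched Zfp42 at 98.1% over 266 bases in its best stretch, and its near-identical stretches together covered 27% of the transcript. Its counts were 30 and 35 in Veh against 51 and 36 in NRRA, which came to 7.31% and 6.81% of those of Zfp42. Its log2 fold change was 0.28 (SE 0.30, adjusted p = 0.458, edgeR). Gm14058, a copy of Dppa4 on chromosome 2 with 99.4% identity over 532 bases, had 4, 0, 5 and 5 counts, and Gm5501, another copy of Dppa4, had 0, 3, 2 and 1. Nanog-ps1 had no count in any library. The copies of Dppa4 and Zfp42 thus had far fewer counts than their parent genes in every library.

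Genes of like pattern were sought for the 5 members that fell by at least 2 on the log2 scale, among the 11320 genes whose mean log2 CPM reached 3, as the smallest root mean square (RMS) difference in centred log2 CPM over the 4 libraries. Enc1 was nearest to Pou5f1 (RMS 0.047), followed by its antisense partner Gm19553 (0.0495). Tgif1, a homeobox repressor, was nearest to Sox2 (0.0157), followed by Phgdh (0.0431), the first enzyme of serine synthesis. Pqlc1 (0.0424) and Zbtb16 (0.0693), the latter a marker of undifferentiated spermatogonia also known as PLZF, were nearest to Utf1. The mean log2 CPM of Utf1 itself, 2.97, lay just under that limit. Sphk1 (0.112) and the neurofilament gene Nefm (0.122) were nearest to Tcl1. For Dppa3, whose own mean log2 CPM of -0.04 lay far under that limit, the nearest were Barhl2 (0.391) and Nefm (1.05), and genes of a level as low as its own were not compared. With 4 libraries in 2 groups this measure mainly reflects the size of the fold change.

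Other genes of the pluripotency network were taken as a list of 41, of which 31 were tested, 19 were lower and 7 were higher (28.4% and 27.9% over all genes tested). Of these, 12 fell and 2 rose by at least 2-fold, beside 7.02% and 6.29% of all genes tested, and the median log2 fold change was -0.65. Gdf3 and T (brachyury) passed the filter on low counts only through Veh, so they could only be called lower. Among the transcription factors of the core and naive network, Nr5a2, a nuclear receptor that can activate Pou5f1, had 1433 and 1471 counts in Veh against 164 and 171 in NRRA and fell by 3.26 on the log2 scale. Mycn went from 2811 and 2990 counts to 437 and 414 and fell by 2.91, and Tbx3 fell by 1.01. Tfcp2l1, a factor of the naive state, moved the other way, from 246 and 250 counts to 1826 and 1728, a log2 fold change of 2.70, and Gbx2 rose from 33 and 24 counts to 193 and 200, or by 2.64. Klf5 (0.87) and Sall4 (0.84) rose less, while Stat3 fell by 0.96, Myc by 0.84 and Klf2 by 0.34. Of the 10 tested genes of this group, 4 were thus higher and 6 lower (all named here passed at an adjusted p under 0.05, edgeR).

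Among embryonic stem cell markers, ligands and RNA-binding proteins, 6 of 10 tested were lower and 2 higher. Gdf3, a ligand of the transforming growth factor family, had 44 and 47 counts in Veh and none in NRRA, which is at least 16.7-fold lower against a floor of 3 counts per library. Dnmt3l, a cofactor of DNA methylation in germ cells, fell by 2.18 and Tdh, the threonine dehydrogenase of mouse stem cells, by 1.37 on the log2 scale. Among genes of primed and formative pluripotency, T (brachyury) went from 133 and 123 counts to 8 and 5 and fell by 4.42, Pou3f1 from 5998 and 6202 to 2552 and 2498 and fell by 1.41, Lef1 fell by 1.30 and Zic2 by 1.18, whereas Dnmt3b rose by 0.44. Of 5 primordial germ cell genes, Nanos3, an RNA-binding protein required for germ cell survival, went from 943 and 1042 counts to 28 in each NRRA library and fell by 5.28, and Prdm1 fell by 1.81. The network genes that moved thus went in both directions, as the members did.

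**Figure D4:**
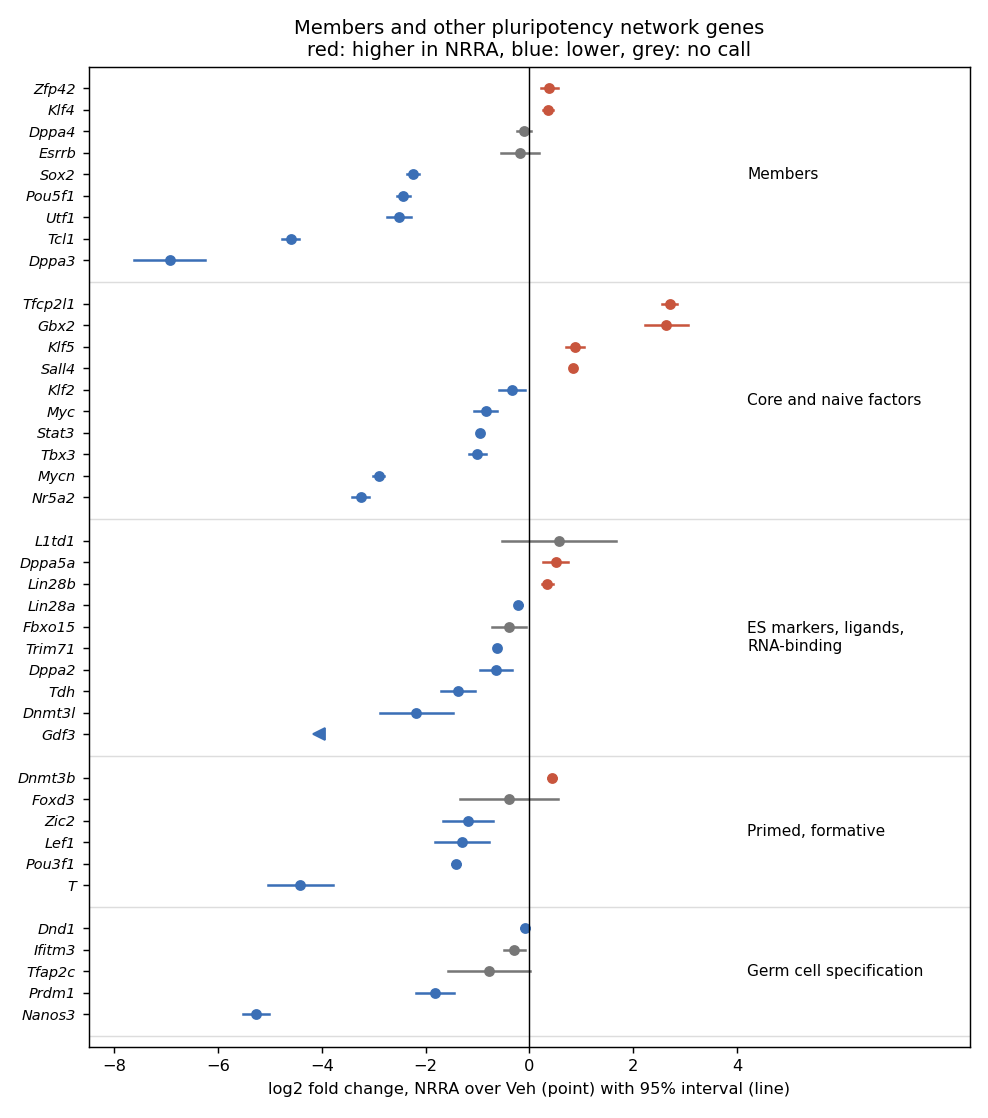
Log2 fold change of NRRA over Veh (x axis, points) with 95% intervals (lines) for the 9 tested members and 31 other tested pluripotency network genes, grouped by role. The lines use a normal quantile of the SE derived from the F statistic and may be too narrow. Red marks genes higher in NRRA, blue lower and grey no call, and the triangle marks the bound for Gdf3, which had no count in NRRA. Members span from -6.94 for Dppa3 to 0.39 for Zfp42.

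The protein families of the members, 48 genes of which some also belong to the network list, gave 31 tested genes with 14 higher and 13 lower (27.9% and 28.4% over all genes tested), and those named below as rising or falling passed at an adjusted p under 0.05 (edgeR). All 16 other KLF genes were tested, 7 of them higher and 8 lower, and none was at 0. Klf10 fell by 1.04, from 4531 and 4896 counts to 2620 and 2442, and was the most counted in Veh. Klf17 rose by 2.48 (12 and 9 counts to 60 and 70), Klf14 by 1.97 (6 and 1 to 15 and 16), Klf1 by 1.94 (5 and 18 to 44 and 53) and Klf15 by 1.4 (28 and 21 to 73 and 70). Klf14, the least counted of the family, passed the filter on low counts only through NRRA, so it could only be called higher. The rise of Klf4 was smaller than those of these 4 relatives.

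Of 5 SOX genes related to Sox2, Sox3 had 460 and 360 counts in Veh against 1582 and 1634 in NRRA and rose by 1.83 on the log2 scale (adjusted p = 7.46e-09, edgeR). Sox3, the closest relative of Sox2 and a gene of undifferentiated and early differentiating spermatogonia, thus moved against Sox2. Sox15 fell by 0.54, and Sox14 was the least counted, with 1, 0, 1 and 0 counts. Among 14 POU genes, Pou3f3 fell by 1.22 while Pou4f1 rose by 1.57 and Pou2f3 by 1.75. The counts of Pou2f3 were 5 and 7 in Veh against 21 and 24 in NRRA, and it passed the filter only through NRRA. Pou3f1 was the most counted in Veh and Pou2f1, which rose by 0.49 from 3257 and 3598 counts to 5608 and 5027, in NRRA. Pou4f2 was the least counted, with 0, 1, 0 and 0 counts.

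Of the relatives of Tcl1, the cluster genes Tcl1b1 to Tcl1b5 had at most 13 counts in any library and were not tested, and Tcl1b5 had none. Tcl1b2 had 9 and 13 counts in Veh against 0 and 3 in NRRA. Mtcp1, on another chromosome, had 58, 74, 78 and 67 counts and a log2 fold change of -0.0034 (adjusted p = 0.992, edgeR). Dppa2, the partner and neighbour of Dppa4, had 182 and 164 counts in Veh against 124 and 120 in NRRA and fell by 0.65 on the log2 scale (adjusted p = 0.000944, edgeR), whereas Dppa5a rose by 0.50 and Dppa1 had no count. Esrra, the most counted relative of Esrrb, rose by 0.16, while Esrrg had 12, 20, 18 and 9 counts and did not pass. Yy1, the relative of Zfp42, rose by 0.11, and Yy2 had no count.

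Within 100 kb of the members lay 27 other protein-coding genes, of which 18 were tested, 6 were lower and 5 were higher, shares near those of all genes tested (28.4% and 27.9%). Around Dppa3 and Nanog on chromosome 6, Gdf3 lay 16323 bases from Dppa3 and was also lost in NRRA. The glucose transporter gene Slc2a3, 13176 bases from Nanog, fell by 1.13 (adjusted p = 1.24e-11, edgeR), while Apobec1 had a log2 fold change of -0.23 (adjusted p = 0.131, edgeR) and Mfap5 one of 0.25 (adjusted p = 0.256, edgeR). Near Pou5f1, Psors1c2 fell by 2.78, from 72 and 60 counts to 13 and 8, while Tcf19, at 1962 bases, had a log2 fold change of -0.11 (adjusted p = 0.164, edgeR) and H2-Q6 rose by 1.25. Near Utf1, Adgra1 rose by 2.38, from 4 and 5 counts to 34 and 19, and it passed the filter only through NRRA.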

How the data were processed

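The authors deposited raw counts per gene for 4 libraries, and the values were whole numbers. Per the labels, bcl2fastq, STAR 2.6.1c and featureCounts 1.6.4 with mm10 made them. The annotation release, strand setting and treatment of multiply mapped reads are not given in the sources used here. The labels and the methods name different library kits (Illumina TruSeq and Tecan Universal Plus), and the treatment field of the Veh samples also reads NRRA, so groups were taken from the titles. Columns were matched by the sample descriptions.

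Counts were filtered with filterByExpr, scaled with TMM and compared with the quasi-likelihood F test of edgeR 4.0.16 (robust) in R 4.3.3, which builds on limma 3.58.1, and adjusted by Benjamini-Hochberg over 20232 genes (threshold 0.05). A gene could pass the filter through only the group where it was high, and it could then be called only in that direction. The SE of a log2 fold change was derived from the F statistic, so that it may be too small and the interval built on it too narrow. DESeq2 1.42.0 was an alternative and gave a larger SE for each of the 9 tested members. Coordinates and exonic lengths came from GENCODE M21, which held 55240 of the 55421 gene identifiers, and near-identical stretches from BLAST 2.17.0 (at least 95% identity over at least 100 bases). Promoters were read from RefSeq. Ratios of counts carry exact intervals and a count of 3 was the floor, for counting error only, since PCR copies were not told apart.

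The members and gene lists were chosen with earlier results of these data known. All members are named, together with genes of the network and family lists past the threshold with a log2 change of at least 1, the most and least counted relatives, and for each member that fell by at least 2 the 2 genes of most like pattern and a mean log2 CPM no lower than 3. Other genes named with values were chosen after their values were seen. The labels do not say that a replicate number marks a shared culture, so no block entered the model. Alternatives were other scalings and filters, no robust estimation, a replicate block, leaving out each library, and adding pseudogene counts. The last included copies matching at least 10% of a transcript, a limit set after the data were seen.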

Additional observations from a re-analysis of the deposited data

How the results depend on the processing

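Under 12 alternatives, all 9 tested members kept the direction and the side of the threshold reported, and 5 members were lower and 2 higher each time. The log2 fold changes ranged from -2.51 to -2.34 for Pou5f1, from -2.29 to -2.15 for Sox2, from -2.58 to -2.43 for Utf1, from -4.70 to -4.51 for Tcl1, from 0.31 to 0.45 for Klf4, from 0.32 to 0.48 for Zfp42, from -0.17 to -0.02 for Dppa4 (adjusted p from 0.069 to 0.851) and from -0.25 to -0.09 for Esrrb (adjusted p from 0.399 to 0.733). Dppa3 ranged from -10.92, without NRRA replicate 1, to -6.02, with pseudogene counts added. Its size is limited by 4 counts in NRRA. Under the 11 of these that were also run on the network list, between 17 and 21 other network genes were lower and 7 were higher. Over all genes, library size alone gave 6962 higher and 4593 lower, so that 60.3% of calls were higher in place of 49.6%, and DESeq2 gave 4267 and 4317. With a replicate block, 5772 genes were higher and 5836 lower and Pou5f1 was at -2.43. The labels do not tie same-numbered libraries to each other, the column names number the Veh libraries differently from the titles, and the deviations of libraries with the same title number correlated at 0.029. The block changed no call of a member.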
